A study of Mus musculus with 15 samples.

Results

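Interferon-stimulated genes are the genes that cells switch on when interferon binds its receptors at the cell surface. A list of 36 such genes, chosen by symbol, was followed across 15 arrays of sorted mouse adipocytes. All 36 had a row among the 25206 probe sets of the deposited table, which names each row by the Entrez number of its gene. Ifi44 was named through RefSeq's gene table and the other 35 through the platform annotation. None of the 36 was left out for a low value, since no filter was applied.

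The cells were fat cells sorted by flow cytometry from UCP1/Tomato mice aged 8 to 10 weeks, kept pathogen-free on standard chow. UCP1 is the mitochondrial uncoupling protein with which such cells make heat. The white adipocyte group (WAT, 4 arrays) held UCP1-negative cells of inguinal fat from untreated mice. The brown adipocyte group (BAT, 3 arrays) held UCP1-positive cells of brown fat, also from untreated mice. The other groups held UCP1-positive cells of inguinal fat after a drug. The drug was CL316243, an agonist of the adipocyte beta-adrenergic receptor, in group CL (3 arrays). It was roscovitine, an inhibitor of cyclin-dependent kinases, in group RS (2 arrays) and rosiglitazone, an agonist of the nuclear receptor PPARG, in group RG (3 arrays). The labels call the mice UCP1/Tomato but the sorting gate UCP1(GFP), so the reporter behind the gate is unsettled. They give no dose, treatment time, sex or array batch. They do not say whether arrays came from separate animals, so p-values measure only the spread between these samples, which may be technical. No UCP1-positive inguinal cells of untreated mice were analysed here, so the UCP1 gate and the drug cannot be told apart in CL, RS or RG against WAT. Fat depot and UCP1 gate cannot be told apart in BAT against WAT. Fat depot and drug cannot be told apart in CL, RS or RG against BAT.

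Type I interferons bind the receptor made of IFNAR1 and IFNAR2. The kinases JAK1 and TYK2 then activate transcription factors, among them STAT2, which join IRF9 and bind the interferon-stimulated response element in promoters. Interferon-gamma acts through another receptor and a different element called GAS. The products include sensors of viral nucleic acid, enzymes that degrade RNA, membrane restriction factors and the ubiquitin-like protein ISG15. Macrophages of adipose tissue express many of the same genes, so macrophage genes were read on the same arrays.

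The promoters are shown first because the response element is the DNA sequence through which type I interferon acts on such genes. The windows below are the 150 bases before the start of 5 members that recur in the results, from RefSeq, build GRCm38.p6. All 5 hold the sequence GAAANNGAAA, which most members with a promoter entry did not. They therefore do not stand for the whole list. The window of Ifit1 (Entrez 15957) is chr19:34640739-34640888 on the plus strand and that of Gbp2 (Entrez 14469) is chr3:142620513-142620662 on the plus strand. The window of Isg15 (Entrez 100038882) is chr4:156200819-156200968 on the minus strand. The window of Oas3 (Entrez 246727) is chr5:120777660-120777809 and that of Bst2 (Entrez 69550) is chr8:71537473-71537622, both on the minus strand. Each is written 5′ to 3′ along its gene, with matches to GAAANNGAAA on either strand in capitals.
Ifit1: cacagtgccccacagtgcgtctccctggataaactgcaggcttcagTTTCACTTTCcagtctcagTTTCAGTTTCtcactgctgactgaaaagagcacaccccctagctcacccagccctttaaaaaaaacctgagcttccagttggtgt
Isg15: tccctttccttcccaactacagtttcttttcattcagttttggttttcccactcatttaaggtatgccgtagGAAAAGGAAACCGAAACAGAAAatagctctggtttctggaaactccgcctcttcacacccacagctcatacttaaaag
Oas3: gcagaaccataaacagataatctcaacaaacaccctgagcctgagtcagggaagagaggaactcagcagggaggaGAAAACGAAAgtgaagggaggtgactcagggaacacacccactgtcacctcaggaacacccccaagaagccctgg
Bst2: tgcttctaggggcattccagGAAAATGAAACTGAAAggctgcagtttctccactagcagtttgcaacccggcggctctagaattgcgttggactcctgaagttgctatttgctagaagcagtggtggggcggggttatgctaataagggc
Gbp2: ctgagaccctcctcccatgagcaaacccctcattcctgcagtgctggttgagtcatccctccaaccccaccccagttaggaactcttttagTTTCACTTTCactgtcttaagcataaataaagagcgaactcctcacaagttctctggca
Position -1 is the last base before the start. The matches begin at -104 and -85 in Ifit1, at -78, -72 and -66 in Isg15, at -75 in Oas3, at -130 and -124 in Bst2 and at -59 in Gbp2. The overlapping matches of Isg15 and of Bst2 form a single run of capitals in each. Of the 36 members, 27 had a promoter entry covering 250 bases before to 50 bases after the start. GAAANNGAAA was found on either strand in 11 of the 27 (40.7%) and in 1079 of all 27025 genes with an entry (3.99%). The 11 were Bst2, Gbp2, Gbp3, Ifih1, Ifit1, Ifit3, Isg15, Oas1a, Oas3, Rsad2 and Stat2. Among the members called lower than WAT in every UCP1-positive group, as given below, Bst2 and Oas3 held a match. Irf7, Ifit2, Oasl1, Oasl2, Samd9l, Ifi44, Ifi35 and Epsti1 were called so too, and their entries held none. TTCNNNGAA, the core of the GAS element, was found in 4 of the 27 (14.8%) and in 9.55% of all genes. A match is a description of letters in this window and no match says nothing about binding. Some members lie side by side in the RefSeq gene order of the same build. Ifit2 and Ifit3, Oas2 and Oas3, Oasl1 and Oasl2, Rsad2 and Cmpk2, Parp9 and Dtx3l, and Dtx3l and Parp14 had no protein-coding gene between them.

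The arrays carried the fat cell and gate markers, with 1 WAT array and 1 RS array apart from the rest. Ucp1 read 3.20 to 4.47 in WAT, 10.22 to 11.22 in BAT, 10.19 to 10.53 in CL, 6.05 and 8.43 in RS (arrays 3 and 4) and 7.69 to 8.88 in RG, in log2 units. Adipoq, the adipocyte hormone adiponectin, read 9.72 to 11.04 on 14 arrays and 7.85 on WAT 4. WAT 4 also had the highest mean of 14 macrophage markers (8.37, with 7.27 to 7.64 on the other WAT arrays). RS 3 had the lowest Ucp1 level of any UCP1-positive array. Array medians lay between 3.33 and 3.47 and the precision is set by the number of arrays, which have no depth of reads.

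Many interferon-stimulated genes were lower in the UCP1-positive groups than in white adipocytes. Of the 36, 33 were called lower in BAT, 30 in CL, 22 in RS and 15 in RG, and none was called higher in any of these groups. A gene was called at an adjusted p under 0.05 in limma, adjusted by Benjamini-Hochberg over the 25206 probe sets. The share of all probe sets called lower was 16.4% in BAT, 9.97% in CL, 10.3% in RS and 6.24% in RG. The share called higher was 27.6%, 15.2%, 11.1% and 5.19% in the same order. No member was higher at an unadjusted p under 0.05 in limma either. The median log2 difference of the 36 members from WAT was -1.37 in BAT, -1.17 in CL, -1.15 in RS and -0.68 in RG. Over all probe sets it was 0.18, 0.13, 0.14 and 0.10. These comparisons share the 4 WAT arrays and are therefore not independent of each other. In bulk samples such as these, fewer cells of a type and less RNA per cell cannot be told apart.

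**Figure D1:**
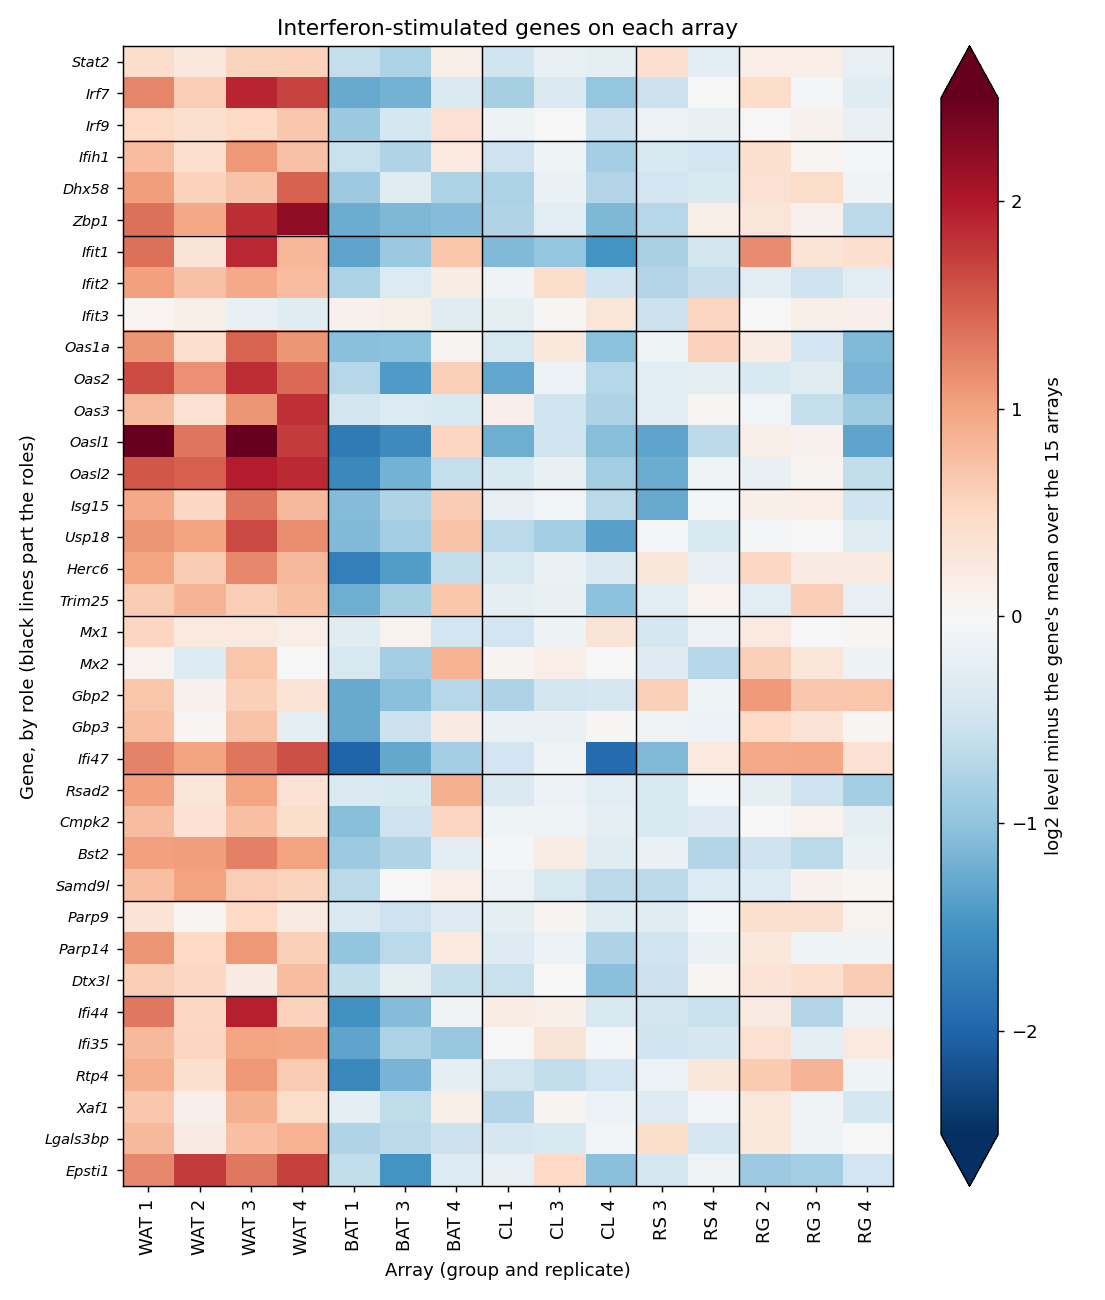
Log2 level of each of the 36 interferon-stimulated genes (rows, by role) on each of the 15 arrays (columns, by group), minus the gene's own mean over the arrays. The 4 WAT columns are red for most genes and the BAT 1 and BAT 3 columns blue, while BAT 4 and the RG columns are paler.

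Without WAT 4 the counts of lower members were 33 in BAT, 28 in CL, 19 in RS and 14 in RG. The count in RS was 13 without RS 3, and 9 without both WAT 4 and RS 3, an alternative chosen after seeing the data. In RG it was 7 without RG 4. Quantile normalization gave 12 in RS, where it kept 11 of the 22 calls. It kept 24 of the 33 calls in BAT, 22 of the 30 in CL and 11 of the 15 in RG. In CL, RS and RG it added 1 call each. Testing only probe sets with a mean above 5 gave 20 in BAT, 19 in CL, 13 in RS and 9 in RG. Members with lower means, such as Mx1 and Oas3, were not tested there, so these counts are not out of 36. Over all fits that left out 1 array, 26 of the calls in BAT were kept each time, 20 in CL, 9 in RS and 7 in RG. Low levels limit some differences, since 10 members lay below the median of their own array on at least 1 array. Among them were Mx1 on 15 arrays, Ifit2 on 9, Oas3 on 7, Oas1a and Epsti1 on 5 each, Mx2 on 4 and Oasl1 on 3. Across the 4 groups, 13 members were called lower every time. They were Irf7, Zbp1, Ifit2, Oas2, Oas3, Oasl1, Oasl2, Usp18, Bst2, Samd9l, Ifi44, Ifi35 and Epsti1. Of all probe sets, 3.71% were. Another 9 members were called in 3 of the groups, 9 in 2 and 3 in 1. Ifit3 and Mx2 were called in none. For 19 of the 36 members all 11 UCP1-positive arrays lay below all 4 WAT arrays, which held for 5.3% of all probe sets.

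Macrophage genes were also lower in every UCP1-positive group. Csf1r, the receptor through which macrophages are maintained, read 7.30, 8.47, 7.23 and 8.75 on WAT 1 to 4. It read 4.70, 5.51 and 5.41 in BAT, 6.21, 6.41 and 5.21 in CL, 4.50 and 4.76 in RS, and 5.26, 6.60 and 4.97 in RG. Cd68, a lysosomal protein of macrophages, read 7.72, 7.90, 8.35 and 9.48 in WAT. It read 5.64, 5.80 and 4.96 in BAT, 5.81, 6.34 and 5.29 in CL, 4.39 and 5.61 in RS, and 6.03, 5.86 and 4.70 in RG. For both genes every UCP1-positive array lay below every WAT array. Of 14 measured macrophage markers, 14 were called lower in BAT, 14 in CL, 14 in RS and 13 in RG, with median log2 differences of -2.65, -2.5, -3.16 and -2.34. Their mean level was 7.27 to 8.37 in WAT, 5.0 to 5.34 in BAT, 4.96 to 5.78 in CL, 4.57 to 5.06 in RS and 4.95 to 6.0 in RG. None of the 14 lay below the array median on all arrays of any group, but some did on single arrays. Fcgr1 read 2.98 on BAT 1, and Adgre1, C1qc and Fcgr1 read 3.18, 3.12 and 3.12 on RS 3, under array medians of 3.33 to 3.47. Low levels therefore limit some of these differences too.

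Other marker lists were read in the same comparisons, beside the shares of all probe sets called. Called lower were 16.4% of all probe sets in BAT, 9.97% in CL, 10.3% in RS and 6.24% in RG. Called higher were 27.6%, 15.2%, 11.1% and 5.19% in the same order. Of 10 stromal markers, such as collagens and Pdgfra, 10 were lower in BAT, 6 in CL, 9 in RS and 3 in RG. Their mean level was 6.84 to 8.67 in WAT, 4.90 to 5.43 in BAT, 5.26 to 6.44 in CL, 4.63 to 5.82 in RS and 5.77 to 6.55 in RG. Of 6 mast cell markers, 5, 4, 5 and 6 were lower in the same order. Of 10 endothelial markers, 7 were lower in RS and 2 in RG, with median differences of -1.87 and -1.35, and none was called in BAT or CL. Of 10 adipocyte markers, 2 were higher in BAT, 1 in CL, 3 in RS and 6 in RG, with medians of 0.54 to 1.04. Of 9 dendritic cell markers, 4 were lower in BAT, 1 in CL, 2 in RS and 1 in RG. Of 10 lymphocyte markers, 1 was lower and 1 higher in BAT, 2 were higher in CL (median 0.62), none was called in RS and 1 was higher in RG. The adipocyte counts in BAT and CL and the lymphocyte counts in BAT lay below the shares of all probe sets. The dendritic cell count in CL lay near its share. Within WAT, the member mean and the macrophage mean did not order the arrays alike. The member mean was 6.22, 5.85, 6.37 and 6.14 on WAT 1 to 4, and the macrophage mean was 7.27, 7.64, 7.5 and 8.37. WAT 2 was the lowest of the WAT arrays in 28 of the 36 members and the second highest in macrophage markers. In BAT the orders also differed. In CL they were alike, with member means of 5.13, 4.86 and 4.67 and macrophage means of 5.78, 5.49 and 4.96 on CL 3, CL 1 and CL 4. In RS they were alike too, with 5.10 and 4.88 against 5.06 and 4.57 on RS 4 and RS 3. In RG, RG 4 was the lowest in both means. The part of the cell types marked by these lists in the difference between WAT and the UCP1-positive groups was not tested.

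**Figure D2:**
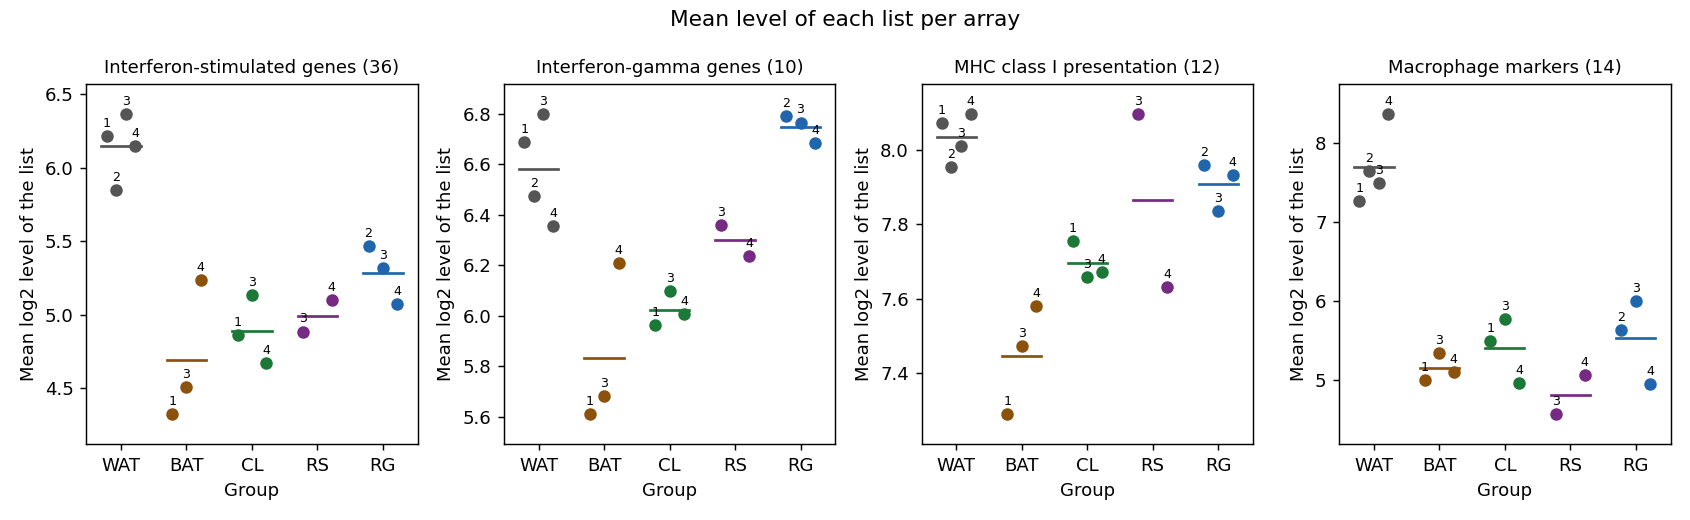
Mean log2 level per array of the 36 interferon-stimulated genes, 10 interferon-gamma genes, 12 genes of MHC class I presentation and 14 macrophage markers, by group. Each point is an array with its replicate number, lines are group means, and the axes do not start at 0. The interferon-stimulated and macrophage means of all UCP1-positive arrays lie below all WAT arrays, and the interferon-gamma mean of the RG arrays lies within the WAT range.

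The 5 members that are oligoadenylate synthetases or their relatives were called lower in nearly all comparisons with WAT. These proteins sense double-stranded RNA, and the enzymatically active ones make oligoadenylates that switch on the nuclease RNase L. Of the 5, 5 were lower in BAT, 5 in CL, 4 in RS and 5 in RG. Oasl1, a relative that restrains translation of Irf7, read 7.33, 6.02, 7.59 and 6.44 in WAT and 2.93, 3.10 and 5.23 in BAT. It read 3.47, 4.19 and 3.62 in CL, 3.37 and 4.03 in RS, and 4.84, 4.80 and 3.38 in RG. BAT 4 stood above the other BAT arrays, and no UCP1-positive array reached the lowest WAT array. The log2 difference from WAT was -3.09 (SE 0.52, 8.53-fold, limma adjusted p = 0.000448) in BAT and -3.08 in CL (adjusted p = 0.0013). It was -3.15 in RS (adjusted p = 0.00315) and -2.5 in RG (adjusted p = 0.00825). The RG difference no longer passed the threshold without RG 4. Oasl1 lay below the median of its own array on 3 arrays, among them BAT 1 and BAT 3, so the size of its differences is uncertain.

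Oasl2 read 6.70, 6.64, 7.11 and 7.02 in WAT, 3.53, 3.97 and 4.55 in BAT and 4.76, 4.97 and 4.28 in CL. It read 3.90 and 5.05 in RS, and 4.97, 5.22 and 4.53 in RG. The groups did not overlap with WAT, and the log2 differences were -2.85, -2.20, -2.39 and -1.96 in BAT, CL, RS and RG. Oas2 read 6.18, 5.70, 6.39 and 5.96 in WAT, 3.84, 3.14 and 5.15 in BAT and 3.24, 4.41 and 3.84 in CL. It read 4.26 and 4.33 in RS, and 4.16, 4.24 and 3.38 in RG. Its differences were -2.01, -2.23, -1.76 and -2.13, with limma adjusted p of 0.000977, 0.00138, 0.0121 and 0.00369. The RS call for Oas2 was lost when either RS array was left out.

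Oas3, whose promoter is printed above, read 4.52, 4.11, 4.83 and 5.55 in WAT and 3.66, 3.12 and 2.84 in RG. It read 3.27, 3.38 and 3.34 in BAT, 3.86, 3.22 and 2.95 in CL, and 3.45 and 3.75 in RS. Its log2 differences ran from -1.55 in RG to -1.15 in RS. Oas1a read 4.93, 4.25, 5.29 and 4.93 in WAT and 4.02, 3.35 and 2.72 in RG, a log2 difference of -1.49 (SE 0.37, adjusted p = 0.0194) that no longer passed without RG 3 or without RG 4. In RS it read 3.73 and 4.41, so RS 4 overlapped WAT, and the difference of -0.78 did not pass (adjusted p = 0.185). Oas1a belongs to a cluster of near-identical genes, and its probe set may take up signal from them. Oas1g, from a list of further interferon-induced genes, read 4.57 to 5.33 in WAT, 1.45 to 2.56 in BAT, 1.69 to 2.43 in CL, 1.5 and 2.20 in RS, and 2.79 to 4.95 in RG. Its difference from WAT was -3.06, -2.96 and -3.17 in BAT, CL and RS, where every array lay below the array medians, so the size of these differences is uncertain. In RG it was -1.08 and did not pass (adjusted p = 0.0897). Oas1b, from the same list, read 2.23 to 3.05 on all arrays, below the array medians, and was not called, with differences of -0.34 in BAT, -0.28 in CL, 0.07 in RS and -0.28 in RG.

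**Figure D3:**
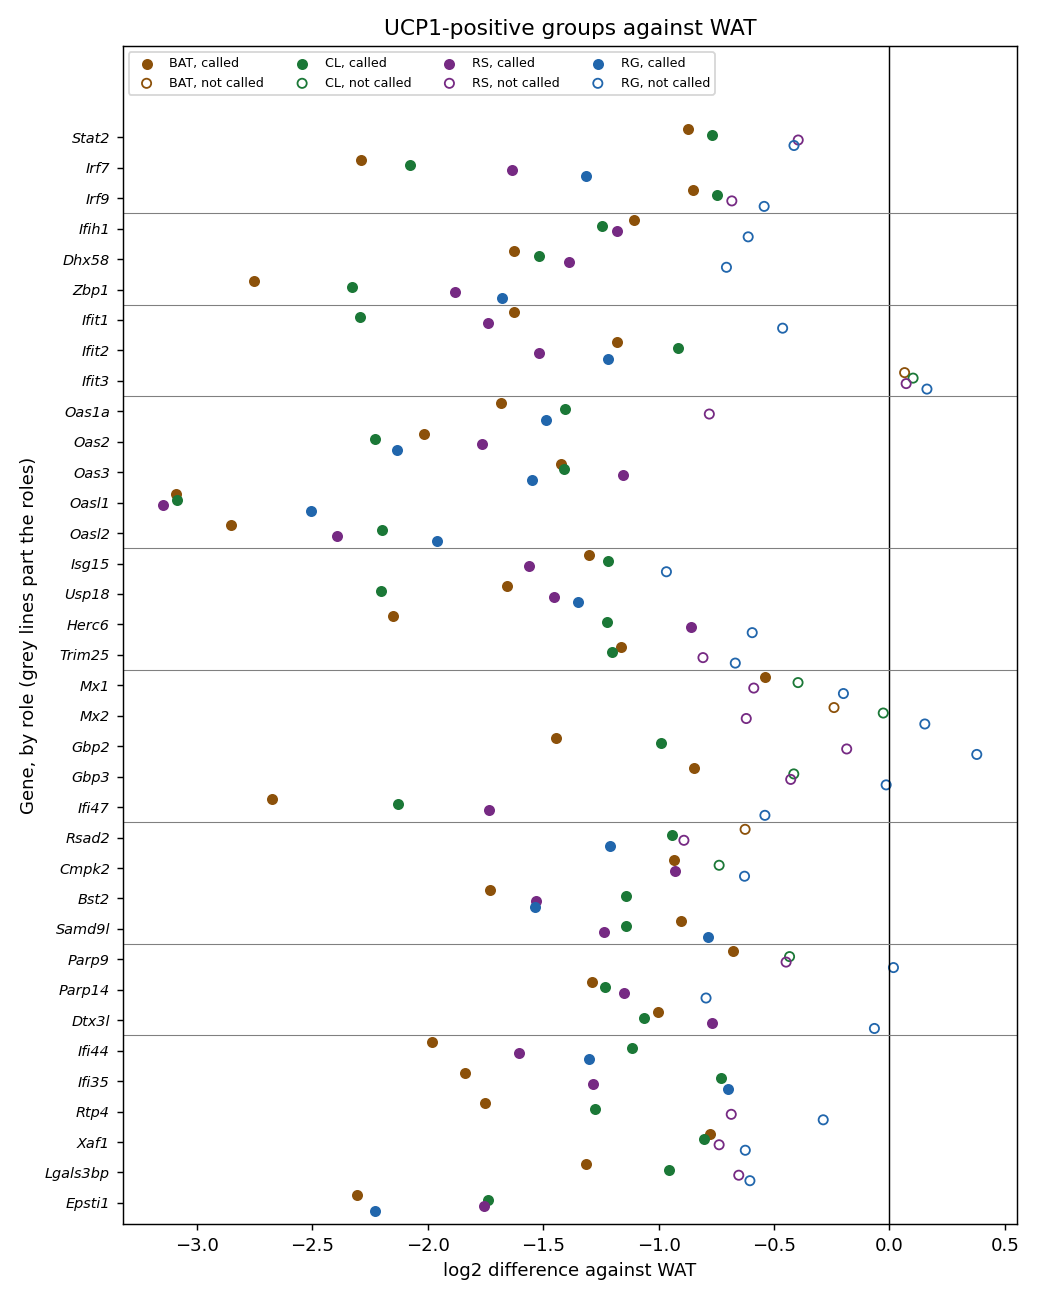
Log2 difference of each UCP1-positive group from WAT for the 36 interferon-stimulated genes, by role. Filled points were called (limma adjusted p under 0.05) and open points were not. Filled points reach -3.15 (Oasl1 in RS), and the points nearest 0 or above it include Ifit3, Mx2, Gbp2 and Dtx3l in RG.

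The nucleic acid sensors were lower in all 3 members in BAT, CL and RS, and in 1 of 3 in RG. Zbp1, a sensor of Z-form nucleic acid that can trigger cell death, read 6.37, 5.96, 6.83 and 7.20 in WAT and 3.75, 3.87 and 3.90 in BAT. It read 4.23, 4.70 and 3.86 in CL, 4.28 and 5.14 in RS, and 5.29, 5.10 and 4.34 in RG. The BAT arrays lay close together, with CL 4 among them, and BAT had the lowest mean. The log2 difference was -2.75 (SE 0.31, 6.73-fold, limma adjusted p = 2.71e-05) in BAT, -2.33 in CL, -1.88 in RS and -1.68 in RG. Dhx58, a regulator of the RNA sensors RIG-I and MDA5, read 5.51, 5.03, 5.17 and 5.94 in WAT. It read 3.54, 4.15 and 3.67 in BAT, 3.66, 4.29 and 3.73 in CL, 3.97 and 4.08 in RS, and 4.84, 4.92 and 4.36 in RG. Each RG array lay below WAT, but the RG difference of -0.71 did not pass. Ifih1, which encodes MDA5, had differences of -1.11, -1.25, -1.18 and -0.61 in BAT, CL, RS and RG, the last not called.

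Of the 3 transcription factors of the pathway, 3 were lower in BAT, 3 in CL, 1 in RS and 1 in RG. Irf7, which amplifies the interferon response, was the member called in all groups. It read 7.49, 6.88, 8.17 and 7.95 in WAT and 5.01, 5.08 and 5.91 in BAT. It read 5.43, 5.91 and 5.30 in CL, 5.73 and 6.25 in RS, and 6.72, 6.23 and 5.97 in RG. RG 2 came close to the lowest WAT array. The log2 difference was -2.29 (SE 0.31, adjusted p = 9.8e-05, limma) in BAT, -2.08 in CL, -1.63 in RS and -1.32 in RG. The RS call for Irf7 was lost without RS 3. Stat2 and Irf9 had differences of -0.87 and -0.85 in BAT and -0.77 and -0.75 in CL. In RS and RG their differences lay between -0.68 and -0.40 and were not called.

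The IFIT proteins bind foreign RNA and block its translation, and 2 of the 3 measured members were called lower in BAT, CL and RS and 1 in RG. Ifit1, whose promoter is printed above, read 6.05, 4.99, 6.55 and 5.50 in WAT and 3.35, 3.73 and 5.36 in BAT. It read 3.57, 3.70 and 3.17 in CL, 3.86 and 4.21 in RS, and 5.84, 5.01 and 5.08 in RG. CL and RS lay below every WAT array, BAT 4 reached into the WAT range, and all 3 RG arrays lay inside it. The log2 difference was -1.63 in BAT (SE 0.42, adjusted p = 0.00653, limma), -2.29 in CL and -1.74 in RS, and -0.46 in RG, which did not pass. The RS call for Ifit1 was lost when either RS array was left out. Ifit2 was called lower in BAT, CL, RS and RG, with differences of -1.18, -0.92, -1.52 and -1.22.

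Ifit3 read 4.47, 4.57, 4.23 and 4.12 in WAT, 4.54, 4.57 and 4.13 in BAT and 4.17, 4.46 and 4.72 in CL. It read 3.88 and 4.96 in RS, and 4.41, 4.57 and 4.55 in RG. All groups overlapped, with differences between 0.07 and 0.16 and limma adjusted p between 0.673 and 0.855. Ifit3 sits next to Ifit2 and has 2 GAAANNGAAA matches in its promoter window, beginning at -156 and -122. It has a near-identical neighbour, Ifit3b, which is not in the table, so signal of both genes may meet in the Ifit3 probe set.

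Genes of the ISG15 system were lower in 4 of 4 members in BAT and CL, 3 in RS and 1 in RG. ISG15 is attached to proteins by ligases such as HERC6 in the mouse and removed by USP18. Isg15 read 5.97, 5.53, 6.36 and 5.83 in WAT and 3.93, 4.27 and 5.66 in BAT. It read 4.82, 4.94 and 4.35 in CL, 3.76 and 4.96 in RS, and 5.17, 5.18 and 4.52 in RG. BAT 4 again lay inside the WAT range. Its log2 difference was -1.30 in BAT, -1.22 in CL, -1.56 in RS and -0.97 in RG, and the last did not pass (adjusted p = 0.101). Usp18 read 6.37, 6.27, 6.91 and 6.42 in WAT and 4.58, 4.39 and 3.90 in CL. It read 4.16, 4.38 and 5.97 in BAT, 5.20 and 4.88 in RS, and 5.22, 5.25 and 4.96 in RG. All 11 arrays lay below WAT, and the differences were -1.66, -2.20, -1.45 and -1.35 in BAT, CL, RS and RG. Herc6 read 6.26, 5.91, 6.49 and 6.09 in WAT and 3.57, 3.88 and 4.66 in BAT. It read 4.87, 5.11 and 4.91 in CL, 5.56 and 5.10 in RS, and 5.79, 5.48 and 5.51 in RG. The order of its differences ran from -2.15 in BAT through -1.22 in CL and -0.86 in RS to -0.59 in RG, which was not called. Trim25, a ligase that activates RIG-I, had called differences of -1.16 in BAT and -1.20 in CL.

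The interferon-induced GTPases were called lower in 4 of 5 members in BAT, 2 in CL, 1 in RS and none in RG. They include the Mx proteins, which block virus replication, and GTPases that attack the compartments in which microbes live. Ifi47, a GTPase of the immunity-related family, read 7.89, 7.65, 8.00 and 8.27 in WAT and 4.65, 5.37 and 5.81 in BAT. It read 6.18, 6.56 and 4.73 in CL, 5.55 and 6.89 in RS, and 7.60, 7.61 and 7.03 in RG. The RG arrays lay just under the WAT arrays and all others lay further down. The log2 difference was -2.68 in BAT (SE 0.40, 6.39-fold, adjusted p = 0.000196, limma), -2.13 in CL and -1.73 in RS. It was -0.54 in RG (adjusted p = 0.395). The RS call was lost without RS 3.

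Gbp2, a guanylate-binding protein, read 7.58, 7.0, 7.48 and 7.24 in WAT, 5.63, 5.84 and 6.17 in BAT and 6.11, 6.43 and 6.47 in CL. It read 7.49 and 6.79 in RS, and 7.96, 7.56 and 7.59 in RG. BAT and CL lay below WAT while RG overlapped its upper end. The differences were -1.45 in BAT (adjusted p = 0.000144) and -0.99 in CL (adjusted p = 0.00432, limma), and -0.18 in RS and 0.38 in RG, neither called. Gbp2 and Gbp3 belong to a family of similar genes, and their probe sets may share signal. Gbp3 was called in BAT, with a difference of -0.85. Mx1 read 1.18 to 2.21 and lay below the array median on all 15 arrays, so its called difference of -0.54 in BAT is a difference between values near the floor. Mx2 read 3.36 to 4.38 in WAT, 2.83 to 4.56 in BAT, 3.69 to 3.87 in CL, 2.99 and 3.37 in RS, and 3.56 to 4.30 in RG, and was not called in any comparison with WAT.

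**Figure D4:**
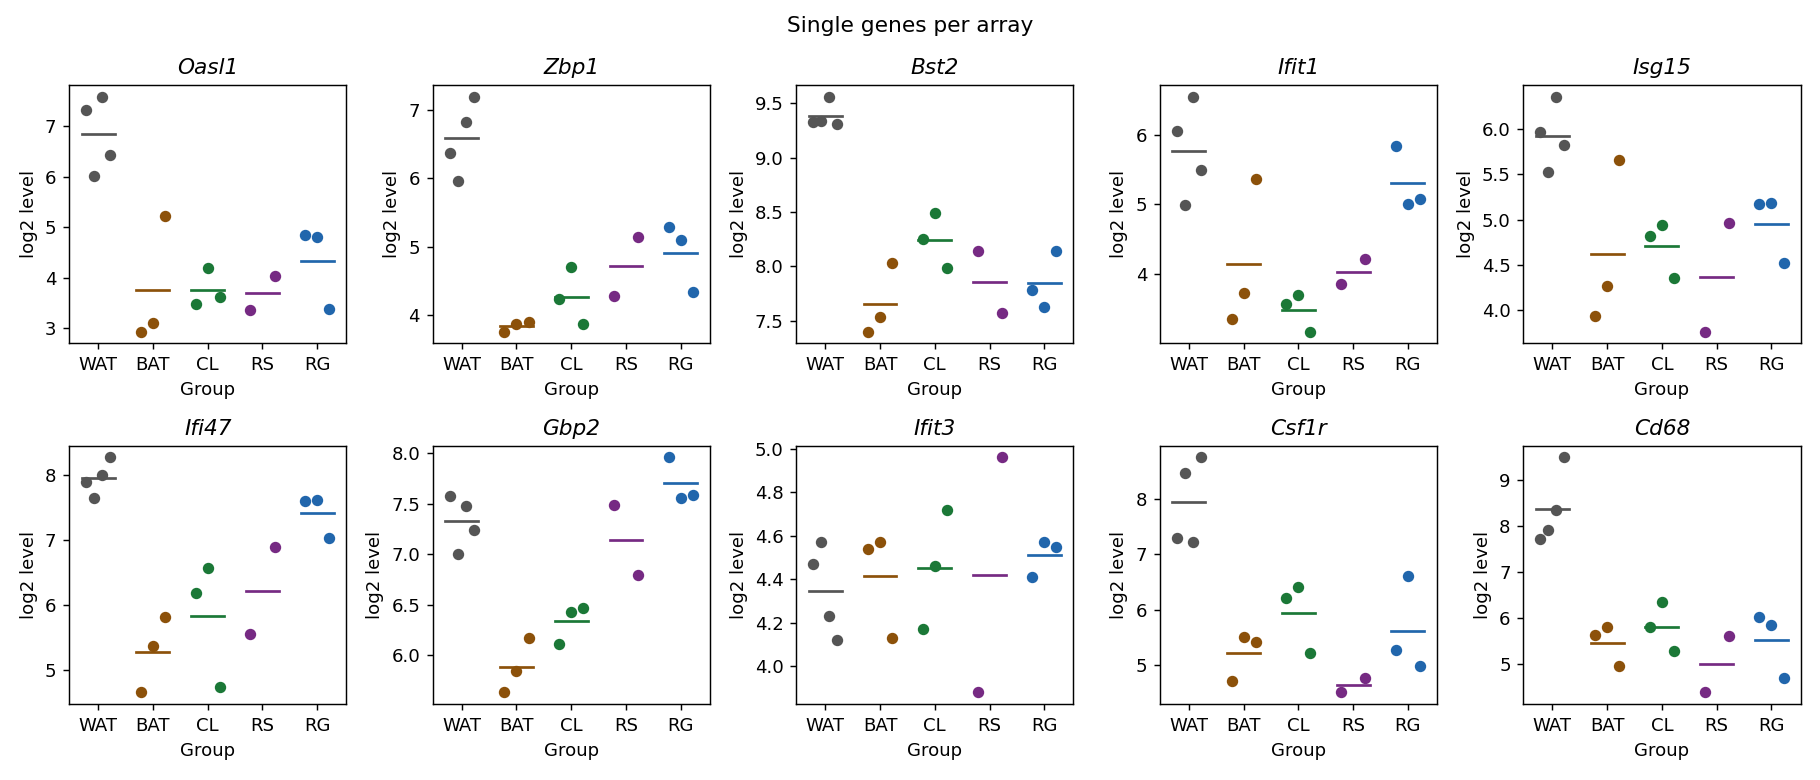
Log2 levels of 8 interferon-stimulated genes and the macrophage genes Csf1r and Cd68 on each array, by group; points are arrays in replicate order, lines are group means, and the axes do not start at 0. For Oasl1, Zbp1 and Bst2 every UCP1-positive array lies below every WAT array, for Gbp2 the RG arrays lie at 7.56 to 7.96 against 7.0 to 7.58 in WAT, and for Ifit3 all groups overlap.

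Of 4 further antiviral effectors, 3 were called lower in each of the 4 groups. Bst2, the membrane protein tetherin that holds virus particles on the cell, read 9.33, 9.34, 9.56 and 9.31 in WAT and 7.40, 7.54 and 8.03 in BAT. It read 8.25, 8.49 and 7.99 in CL, 8.14 and 7.57 in RS, and 7.78, 7.63 and 8.14 in RG. The highest UCP1-positive array, CL 3, stayed under the lowest WAT array, WAT 4. Its log2 difference was -1.73 in BAT, -1.14 in CL, -1.53 in RS and -1.54 in RG (SE 0.20, 2.90-fold, limma adjusted p = 0.000447). Samd9l, which restricts viral translation, was also called in all 4 groups, at -0.90, -1.14, -1.24 and -0.79. Rsad2, the enzyme viperin, was called in CL (-0.94) and RG (-1.21). Cmpk2, the nucleotide kinase gene beside it, was called in BAT (-0.93) and RS (-0.93).

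Parp9 and Dtx3l, which form an ADP-ribosylating ubiquitin ligase, and their neighbour Parp14 were lower in 3 of 3 members in BAT, 2 in CL, 2 in RS and none in RG. Dtx3l read 6.12, 6.02, 5.70 and 6.26 in WAT and 4.89, 5.27 and 4.91 in BAT. It read 4.94, 5.48 and 4.46 in CL, 4.96 and 5.55 in RS, and 5.84, 5.91 and 6.13 in RG. RG lay inside the WAT range and the other groups below it. The difference was -1.0 in BAT, -1.07 in CL, -0.77 in RS and -0.07 in RG, the last not called (adjusted p = 0.882, limma).

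The remaining 6 members were called lower in 6 cases in BAT, 6 in CL, 3 in RS and 3 in RG. Epsti1, an interferon-induced gene active in macrophages, read 5.20, 5.74, 5.31 and 5.71 in WAT and 3.39, 2.51 and 3.65 in BAT. It read 3.80, 4.50 and 2.96 in CL, 3.57 and 3.90 in RS, and 3.10, 3.15 and 3.53 in RG. All groups lay below WAT, and the RG arrays lay within the range of the other UCP1-positive arrays, with a difference of -2.23 (SE 0.32, 4.69-fold, limma adjusted p = 0.000923). Ifi35 read 6.64, 6.37, 6.83 and 6.80 in WAT, 4.52, 5.05 and 4.89 in BAT and 5.83, 6.15 and 5.81 in CL. It read 5.33 and 5.42 in RS, and 6.21, 5.60 and 6.07 in RG. Its difference was -1.84 in BAT against -0.73 in CL and -0.70 in RG. Rtp4, a receptor-transporting protein, read 6.88, 6.37, 7.06 and 6.61 in WAT and 4.37, 4.82 and 5.75 in BAT. It read 5.51, 5.37 and 5.49 in CL, 5.83 and 6.26 in RS, and 6.63, 6.83 and 5.87 in RG. RG overlapped WAT, and only BAT (-1.75) and CL (-1.27) were called. Ifi44, Xaf1 and Lgals3bp were called in BAT (-1.98, -0.78 and -1.31) and in CL (-1.11, -0.80 and -0.95). Ifi44 was also called in RS (-1.60) and RG (-1.30), where Xaf1 and Lgals3bp were not.

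Inguinal UCP1-positive cells of the rosiglitazone group had higher levels of 10 of the 36 members than brown adipocytes. RG and BAT differ in fat depot and in drug, which cannot be told apart. The share of all probe sets called higher in RG against BAT was 5.85%, and none of the members was called lower, where 8.42% of all probe sets were. No member was lower at an unadjusted p under 0.05 in limma. The 10 were Ifi47 (2.14, 4.40-fold), Gbp2 (1.82), Herc6 (1.56), Rtp4 (1.46), Ifi35 (1.14), Zbp1 (1.07), Dtx3l (0.94), Dhx58 (0.92), Lgals3bp (0.71) and Parp9 (0.70), as log2 differences. Their limma adjusted p lay between 0.000374 (Gbp2) and 0.0466 (Lgals3bp). The Gbp2 level was 7.70 ± 0.22 (SD, n = 3) in RG and 5.88 ± 0.27 (SD, n = 3) in BAT. The Ifi47 level was 7.41 ± 0.33 (SD, n = 3) in RG and 5.28 ± 0.59 (SD, n = 3) in BAT. The median over the 36 members was 0.49, and -0.07 over all probe sets. The 5 OAS members were not called, with differences from -0.12 to 0.89, whereas Oas1g, no member of the 36, was called higher by 1.97 (adjusted p = 0.00926, limma).

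**Figure D5:**
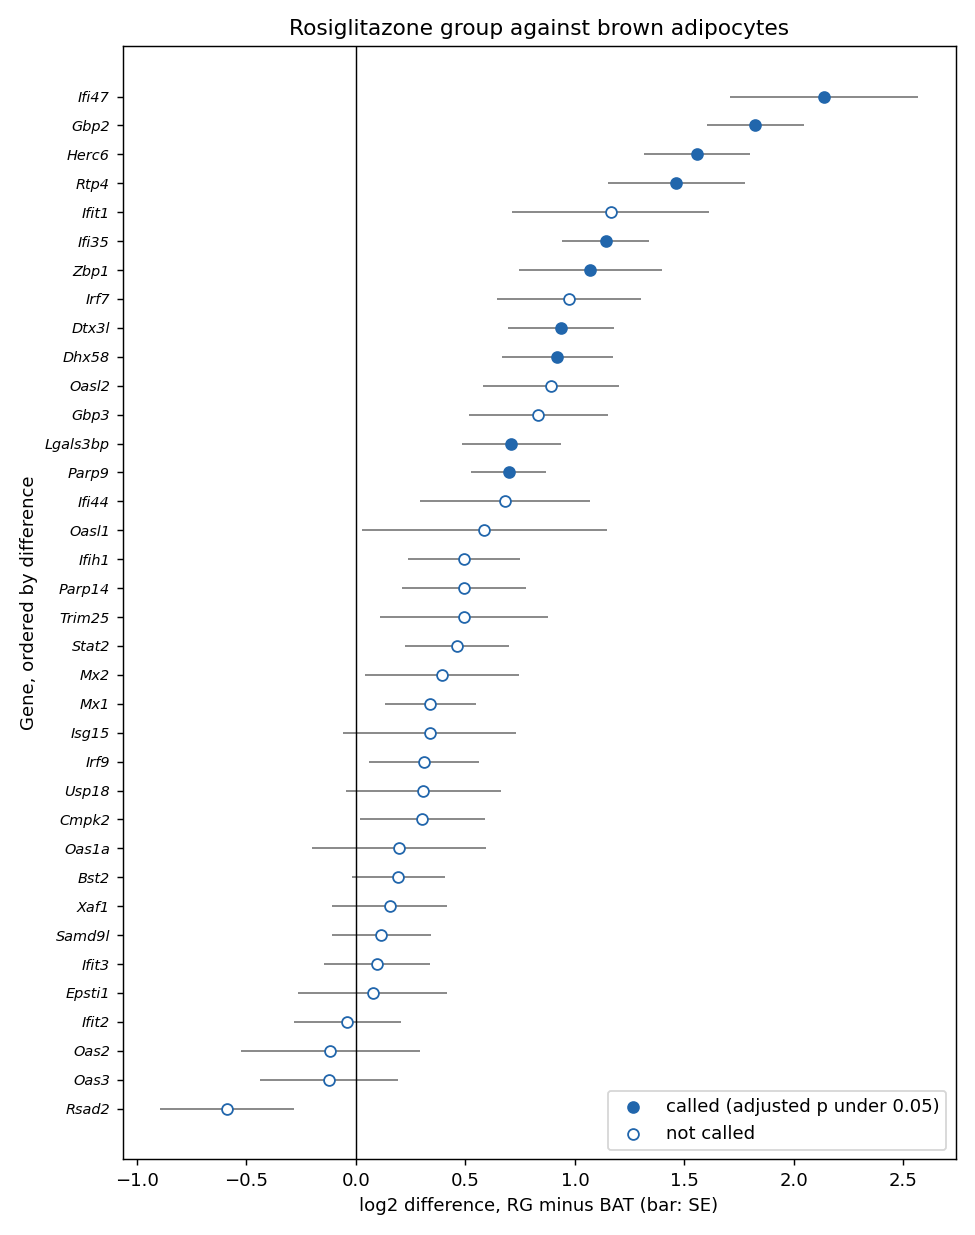
Log2 difference between RG and BAT for each of the 36 interferon-stimulated genes, with its standard error, in order of size. Filled points were called (limma adjusted p under 0.05). Ifi47 at 2.14 and Gbp2 at 1.82 are the largest, and Rsad2 at -0.59 is the lowest and was not called.

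Macrophage genes were read in the same groups. Of 14 macrophage markers, 1 was called higher in RG than in BAT, with a median difference of 0.39. Csf1r differed by 0.40 (adjusted p = 0.586) and Cd68 by 0.06 (adjusted p = 0.941, limma). Stromal markers had a median difference of 1.01, with 1 of 10 called higher, and endothelial markers one of -1.18, with 1 of 10 called lower. At an unadjusted p under 0.05 in limma, 2 macrophage and 5 stromal markers were higher in RG and 5 endothelial markers lower. Their part in the difference between RG and BAT was not tested. Without BAT 4 the count of higher members was 17, without RG 3 it was 5, and with quantile normalization it was 6. The calls of Herc6, Gbp2, Ifi47, Ifi35 and Rtp4 were kept whichever array was left out. Without RG 3 those of Dhx58, Zbp1, Parp9, Dtx3l and Lgals3bp were lost. Lgals3bp was lost without any of the 6 arrays, Zbp1 also without any BAT array or RG 2, Dhx58 also without BAT 1, BAT 4 or RG 2, Dtx3l also without BAT 1, BAT 4 or RG 4, and Parp9 also without RG 2.

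BAT 4 stood apart from BAT 1 and BAT 3 in these genes. It was the highest BAT array in 30 of the 36 members, while it was the highest in 8625 of all 25206 probe sets. Its median excess over the mean of BAT 1 and BAT 3 was 0.85 over the members and -0.01 over all probe sets. The excess was over 1 log2 unit in 15 members (41.7%) and in 1.54% of all probe sets. The largest were Oasl1 (2.22), Ifit1 (1.82), Trim25 (1.72), Usp18 (1.70), Oas2 (1.66) and Isg15 (1.56). Over the 10 members called higher in RG than in BAT it ran from -0.18 in Dhx58 to 1.16 in Rtp4, with 0.80 in Ifi47 and 0.09 in Zbp1. The median excess was -0.04 over the macrophage markers, -0.40 over the stromal markers and 0.73 over the endothelial markers. This comparison rests on 1 array against 2 and has no test.

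Among the inguinal UCP1-positive groups, CL lay below RG in 3 members. The share of all probe sets called lower in CL against RG was 1.22%. Ifit1 was lower in CL by a log2 difference of -1.83 (SE 0.45, 3.56-fold, limma adjusted p = 0.0421). Gbp2 had a difference of -1.37 (SE 0.22, adjusted p = 0.0111) and Dtx3l one of -1.0 (SE 0.24, adjusted p = 0.0405). For all 3 genes every CL array lay below every RG array, as the values above show. The Ifit1 call was lost when any CL or RG array was left out, and the Dtx3l call when any of them but CL 3 was. None of the 36 was called without RG 2, and 1 was called with quantile normalization. Macrophage markers had a median difference of -0.19 between CL and RG, with none of 14 called by limma and 1 lower in CL at an unadjusted p under 0.05. Endothelial markers had a median of 1.55 and mast cell markers one of 1.21, each with 1 called higher in CL. At an unadjusted p under 0.05 in limma, 10 of 10 endothelial and 5 of 6 mast cell markers were higher in CL. Of all 25206 probe sets, 416 were called higher in CL. The part of these cell types in the difference between CL and RG was not tested.

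No member passed the test between the roscovitine group and the other inguinal UCP1-positive groups. None of the 36 was called in RS against CL, where 1.27% of all probe sets were called, and none in RS against RG, where 0.682% were. At an unadjusted p under 0.05 in limma, 3 members differed in RS against CL and 7 in RS against RG. With 2 arrays, RS borrows its spread from the other groups in this fit. The largest of these differences were Ifit1 at -1.28 (SE 0.50) and Ifi47 at -1.19 (SE 0.48) in RS against RG. Endothelial markers had a median difference of -2.16 in RS against CL, with 3 of 10 called lower. Macrophage markers had one of -0.57, with none of 14 called. The part of these cell types was not tested. Against BAT, Herc6 (1.29) and Gbp2 (1.26) were higher in RS, where 1.33% of all probe sets were called higher, and neither was called without RS 3. Herc6 was also lost without BAT 1 or without BAT 3. Ifi35 (1.11) was higher in CL than in BAT, where 0.635% were, and was not called without CL 3. None of these calls against BAT was made when only the 2 groups compared were fitted.

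Of the interferons themselves, interferon beta was called lower in BAT, CL and RS, at levels below the array medians on every array of these groups and on WAT 2, so the size of its differences is uncertain. Its gene Ifnb1 read 4.21, 3.20, 5.09 and 3.72 in WAT and 2.36, 2.09 and 3.09 in BAT. It read 2.03, 3.26 and 2.53 in CL, 2.57 and 2.53 in RS, and 3.48, 2.34 and 2.94 in RG. WAT 3 and WAT 1 were the highest, and WAT 2 overlapped CL and RG. The difference was -1.54 in BAT (adjusted p = 0.00687), -1.45 in CL (adjusted p = 0.0174) and -1.51 in RS (adjusted p = 0.0301, limma). In RG it was -1.14 and did not pass (adjusted p = 0.0784). Ifng, the gene of interferon-gamma, read 1.79 to 2.99 over the 15 arrays, below the array medians of 3.33 to 3.47, and its difference of 0.73 in CL was called (adjusted p = 0.0113). Of 8 measured ligands, 1 was lower and 2 were higher in BAT, 1 lower and 1 higher in CL, 1 lower and 2 higher in RS, and none called in RG. Of all probe sets, 16.4%, 9.97% and 10.3% were called lower in BAT, CL and RS, and 27.6%, 15.2% and 11.1% higher. The ligand counts in BAT lay below these shares and those in CL near them. In RS only the higher count lay clearly above its share. The ligands furthest above WAT in BAT and RS, Ifnk and Ifne, lay below the array medians on every array. The size of their differences is therefore uncertain.

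Signalling genes of the pathway differed in part. Over 36 measured genes of ligands, receptors, kinases, sensors and inhibitors, 20 were lower in BAT, 18 in CL, 15 in RS and 9 in RG. The higher counts were 2, 1, 2 and 0. Of all probe sets, 16.4%, 9.97%, 10.3% and 6.24% were called lower in the same order. Called higher were 27.6%, 15.2%, 11.1% and 5.19%, and the higher counts lay below these shares. Of 6 receptor chains, 4 were lower in BAT, 3 in CL, 2 in RS and 2 in RG, among them Ifngr2 in all 4 groups (-1.36, -0.76, -1.20 and -0.94). Ifnar1 was lower in BAT (-0.86) and CL (-0.83), while Ifnar2 had differences from -0.16 to 0.05 and was not called. Jak1 was lower in BAT by a log2 difference of -1.02 (adjusted p = 0.000165, limma). Tlr7, a receptor for single-stranded RNA found in macrophages and dendritic cells, read 5.54 to 6.59 in WAT and 2.31 to 3.65 on all other arrays. Its differences were -2.95 in BAT, -2.95 in CL, -2.99 in RS and -2.71 in RG. On most UCP1-positive arrays Tlr7 lay below the array medians of 3.33 to 3.47, so the size of these differences is uncertain. All 6 inhibitors, among them Samhd1 and Socs1, were lower in BAT, 5 in CL, 4 in RS and 2 in RG.

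Most interferon-gamma genes and genes of MHC class I presentation were lower in BAT, fewer in CL and RS, and none was called lower in RG. Of 22 measured, 15 were lower in BAT, 9 in CL, 2 in RS and none in RG, where 1 was lower at an unadjusted p under 0.05 in limma. The share in CL was 40.9% and that in RS 9.09%, against 9.97% and 10.3% of all probe sets. In BAT and RG, 16.4% and 6.24% of all probe sets were called lower. Called higher were 27.6%, 15.2%, 11.1% and 5.19% of all probe sets in BAT, CL, RS and RG. Psme2, a subunit of the proteasome activator, was called higher in BAT (0.57) and CL (0.63, adjusted p = 0.0099, limma), and was the 1 gene of the 22 higher there. Cxcl9, a chemokine induced by interferon-gamma, was called higher in RG than in WAT, by 0.80 (SE 0.23, adjusted p = 0.0402). It read 8.96, 8.72, 9.23 and 8.16 in WAT and 9.57, 9.56 and 9.56 in RG. Every RG array lay above every WAT array. Cxcl10, a related chemokine, read 6.88 to 7.73 in WAT, 6.72 to 6.90 in BAT, 6.36 to 7.08 in CL, 7.81 and 7.78 in RS, and 7.88 to 7.96 in RG. Against BAT, 12 of the 22 were higher in RG, among them Gbp5 (1.61), Irgm1 (1.26), Psmb8 (1.23), Cxcl9 (1.21), Cxcl10 (1.11) and Irf1 (0.93). Of all probe sets, 5.85% were called higher there. Psmb8 is a subunit of the immunoproteasome, which cuts peptides for class I molecules. Against RG, 4 of the 22 were lower in CL, which were Nlrc5 (-1.39), Irgm1 (-1.39), Cxcl10 (-1.29) and Irf1 (-0.84). In that comparison 1.22% of all probe sets were called lower. Nlrc5, the activator of class I genes, read 4.02, 3.97 and 3.64 in CL and 5.34, 5.53 and 4.93 in RG. In RS against CL, Cxcl10 (1.16, limma adjusted p = 0.0362) and Nlrc5 (1.16, adjusted p = 0.0387) were called higher. Gbp4 (-1.53, adjusted p = 0.0466) was called lower. Of all probe sets, 1.27% were called in that comparison.

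Of 34 further interferon-induced genes, 22 were lower in BAT, 20 in CL, 21 in RS and 13 in RG, and 2, 1, 0 and 0 were higher. The shares of all probe sets called lower were 16.4%, 9.97%, 10.3% and 6.24% in the same order. Those called higher were 27.6%, 15.2%, 11.1% and 5.19%. Ifi204, a DNA-sensing protein of macrophages, was lower by -3.57, -3.13, -3.51 and -1.88 in log2 units in BAT, CL, RS and RG. It read 6.48, 7.55, 6.74 and 7.52 in WAT and 4.73, 6.15 and 4.71 in RG. On BAT 1 (2.49), CL 4 (3.03) and RS 3 (2.85) it lay below the array medians of 3.33 to 3.47. The size of its differences in BAT, CL and RS is therefore uncertain. Slfn2, a regulator of immune cell quiescence, had differences of -2.67, -2.72, -2.73 and -2.31. Ifitm2, a membrane protein that blocks virus entry, had differences of -1.68 in BAT, -1.21 in CL and -1.22 in RG. Against BAT, 9 of the 34 were higher in RG, among them Oas1g (1.97), Nmi (1.02) and Pnpt1 (0.99). Of all probe sets, 5.85% were called higher there.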

How the data were processed

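Affymetrix arrays were hybridised with cDNA amplified from 2 ng of total RNA (WT Pico kit, per the labels' protocols). Each array has 1 deposited value per probe set, on a log2 scale. The authors made them with RMA, affy 1.36.1 and Affymetrix Expression Console, per the submitters' processing notes, which give no order or settings. Probe-set definition and genome build are not given in the sources used here. Of 25206 probe sets, 23185 had a symbol in the platform annotation and 2021 had none. Ifi44 was named through RefSeq by Entrez number. Some items are not reported here.

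Groups come from the labels. limma 3.58.1 (lmFit, contrasts.fit, eBayes) in R 4.3.3 fitted all 15 arrays with 1 mean per group and 10 residual degrees of freedom. All testing was two-sided, over all probe sets, in 10 comparisons, with a threshold of 0.05 and no filter. The script was tested on simulated data. The members and lists were chosen with earlier results of these data known. Values on every array are printed for members past the threshold whose arrays do not overlap, up to 8 with the largest decrease and 8 with the largest increase per comparison. Members on which a statement about a role rests are named besides. Of the other lists up to 6 genes with the smallest p per comparison are named, and those named beyond this were chosen after their values were seen. Alternatives were the replicate number as a block, median centring, quantile normalization, a filter on low means, eBayes with a trend, fits of the 2 groups alone and leaving out each array.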

Additional observations from a re-analysis of the deposited data

Results flagged for a closer look

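Bst2 on WAT 3 read 9.56, while the other WAT arrays read 9.31 to 9.34. It was the only outlier among the 36 groups of 4 arrays checked, and chance marks about 1 group in 20.

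The effects of CL and RG against WAT differed in Ifit1, Gbp2 and Dtx3l by the direct test of CL against RG in limma. The difference of the effects was -1.83 in log2 units for Ifit1 (adjusted p = 0.0421), -1.37 for Gbp2 (adjusted p = 0.0111) and -1.0 for Dtx3l (adjusted p = 0.0405). Both effects are taken from the same WAT arrays, which cancel in this test. Without RG 2 none of the 3 was called.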

How the results depend on the processing

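No named gene reversed under the alternatives run, and no member was called in the opposite direction in the comparisons with WAT or BAT, while some counts fell to 0. Of the named genes' alternative values, 525 kept their side of the threshold and 73 lost the call. Testing only probe sets with a mean above 5 left fewer members to test and gave 20 lower members in BAT, 19 in CL, 13 in RS and 9 in RG against WAT. Quantile normalization gave 12 in RS against WAT, 1 in CL against RG and 6 in RG against BAT. Against WAT it kept 24 of 33 calls in BAT, 22 of 30 in CL and 11 of 15 in RG. In the deposited values the SD over all probe sets was 1.91 to 2 on WAT arrays and 1.65 to 1.85 on the other arrays. Fitting only the 2 groups compared gave 0 in CL against BAT and 0 in RS against BAT. With WAT 4 and RS 3 both left out, an alternative chosen after seeing the data, RS had 9 against WAT and 0 against BAT. A block for replicate number gave 14 in RS and 9 in RG against WAT, 0 in CL against RG, CL against BAT and RS against BAT, and 2 in RG against BAT. The 24 pairs of same-numbered arrays had correlations of -0.881 to -0.0498 and 0 of 15 arrays matched its own number best, so the numbers do not pair the samples. Leaving out 1 array gave 27 (BAT 1) to 34 (BAT 4) in BAT, 20 (CL 4) to 30 in CL, 13 (RS 3) to 21 in RS and 7 (RG 4) to 15 in RG against WAT. It gave 0 to 1 in RS against CL, 0 in RS against RG, 0 (RG 2) to 3 in CL against RG, 0 to 2 in CL against BAT, 0 to 3 in RS against BAT and 5 (RG 3) to 17 (BAT 4) in RG against BAT. The cause of these changes was not tested. Quantile normalization moved the median of all probe sets in BAT against WAT from 0.18 to 0.03. Centring arrays on their medians moved the share of called probe sets that were higher from 62.6% to 51.5% in BAT, 60.4% to 50.7% in CL and 51.7% to 39.2% in RS against WAT, and from 41.0% to 59.3% in RG against BAT.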
